A study of Mus musculus with 6 samples.

Results

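The 10 genes described here belong to the bone morphogenetic protein (BMP) pathway and were taken by gene symbol from the 55536 genes counted. They are the ligands Bmp2, Bmp4 and Bmp6, the type I receptor Bmpr1a, the secreted antagonist Grem1, the inhibitory SMADs Smad6 and Smad7, and the target genes Id1, Id2 and Id3. BMP ligands assemble type I and type II receptors, which phosphorylate SMAD1, SMAD5 and SMAD9, and these enter the nucleus with SMAD4 to activate targets such as the Id genes. Id proteins bind E proteins and keep them from forming active dimers with MyoD, and in muscle stem cells BMP signalling is known for holding activated cells in division and delaying differentiation. SMAD6 and SMAD7 are induced by the pathway and inhibit it from within the cell, while GREM1 (gremlin) binds BMP ligands outside it.

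RNA was measured in activated satellite cells, the stem cells of skeletal muscle, from 3 control and 3 cKO samples. The cKO samples came from Pax7CreErt2;Hira fl/fl mice and the control samples, which the sample labels call WT, from Pax7CreErt2;Hira fl/+ mice by the methods of the study. Adult C57BL/6J males of 8 to 12 weeks in both groups carried the Cre and received a tamoxifen diet for 2 weeks, and the Pax7 promoter limited deletion to cells that use it. The tibialis anterior was injured with BaCl2, and CD34+ ITGA7+ CD45- TER119- SCA1- cells sorted 5 days later were cultured for 48 h in high serum with bFGF. The samples are described as independent RNA samples, and separate mice are not stated, so p-values measure the spread between these samples, which may be technical. Hira encodes a histone chaperone that deposits H3.3.

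Counts on genes ranged from 47944477 to 63323577 reads per library. For Hira itself, the control libraries held 375, 348 and 341 counts, and the cKO libraries 161, 293 and 272. Every cKO library was lower, with a log2 fold change of -0.43 (SE 0.12, adjusted p = 0.0237 by the quasi-likelihood test of edgeR, Benjamini-Hochberg adjustment for 22404 genes). Without control replicate 1 this was -0.34 (adjusted p = 0.104), and without cKO replicate 1, the library with the fewest Hira counts, it was -0.29 (adjusted p = 0.0459). By annotation, 44.7% of the exonic bases of Hira are shared with the gene model Gm28539. In mean CPM (counts scaled to the library total), Hira went from 5.89 in control to 4.39 in cKO. For satellite cells of the same genotypes, the study reported by RT-qPCR a sharper fall of Hira RNA than the one read here. By staining it found no HIRA protein. The reason for the difference in RNA was not tested. In control, Myod1 stood at 773 CPM, Des at 3199 and Pax7 at 39.3, so these markers of the labelled cell type were present. Markers of differentiating muscle were also high in control, with Myog at 2112 CPM, Acta1 at 6032 and Myh3 at 10803. The RNA was therefore not that of undifferentiated satellite cells alone. Marker lists of other cell types are given with their sums after the members, and the macrophage list was upregulated for every marker in cKO.

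Among the 10 genes, the antagonist and the inhibitory SMADs rose in cKO, and the receptor and Id2 fell slightly. Id1, Id3 and the ligands did not pass the test. The calls of Smad6 and Id2 were lost in some of the fits that left out a library. Grem1 was 1.61-fold higher in cKO, Smad7 1.20-fold and Smad6 by 0.13 on the log2 scale, while Bmpr1a was 0.913 and Id2 0.922 of control. A gene was called changed at an adjusted p under 0.05 by the quasi-likelihood test of edgeR. By that rule 3 of the 10 genes were upregulated and 2 downregulated, against 9.38% and 6.46% of all tested genes, or 15.8% in either direction. The libraries of the groups did not overlap for 7 of the 10, against 31.4% of all tested genes. The median log2 fold change of the 10 genes was 0.14, and that of all tested genes was -0.0011. All 10 genes passed the filter on low counts.

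**Figure D1:**
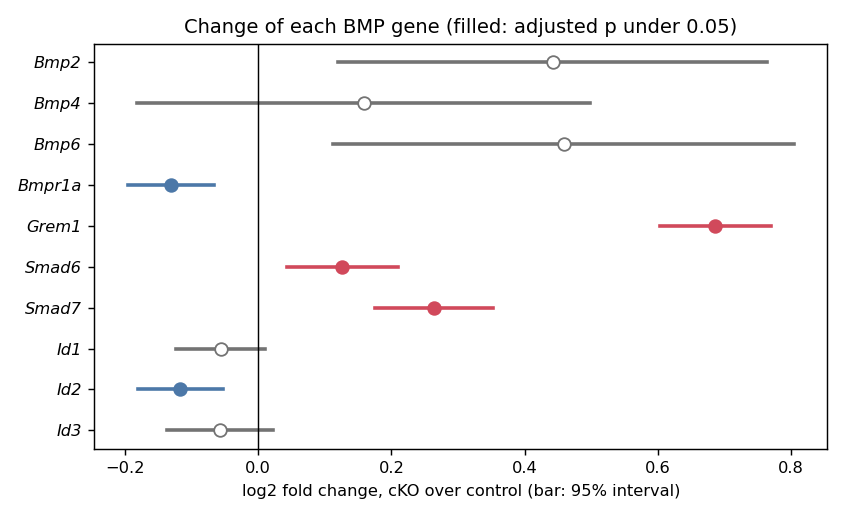
Log2 fold change of each BMP gene, cKO over control (x axis), with its 95% interval as a bar and filled points for an adjusted p under 0.05. Grem1 lies farthest right at 0.69, Bmpr1a at -0.13 and Id2 at -0.12 lie left of 0, and the intervals of Id1, Id3 and Bmp4 span 0.

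Between genes, levels were compared as CPM per kilobase of merged exon. In control the order from the top was Id1 at 157 ± 2.52 (SD, n = 3), Id3 at 81.3 ± 3.91, Id2 at 51.6 ± 0.385 and Bmpr1a at 35.1 ± 0.438. Smad7 at 15.3 ± 0.226, Smad6 at 9.59 ± 0.102 and Grem1 at 5.52 ± 0.118 formed the middle of the order. The ligands were lowest, with Bmp4 at 0.483 ± 0.0573, Bmp2 at 0.299 ± 0.0146 and Bmp6 at 0.210 ± 0.0141. No pair of neighbours in this order overlapped between control libraries, and the order of the means was the same in cKO. In both groups the RNA of the Id targets and of the receptor was far more abundant than that of these ligands.

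**Figure D2:**
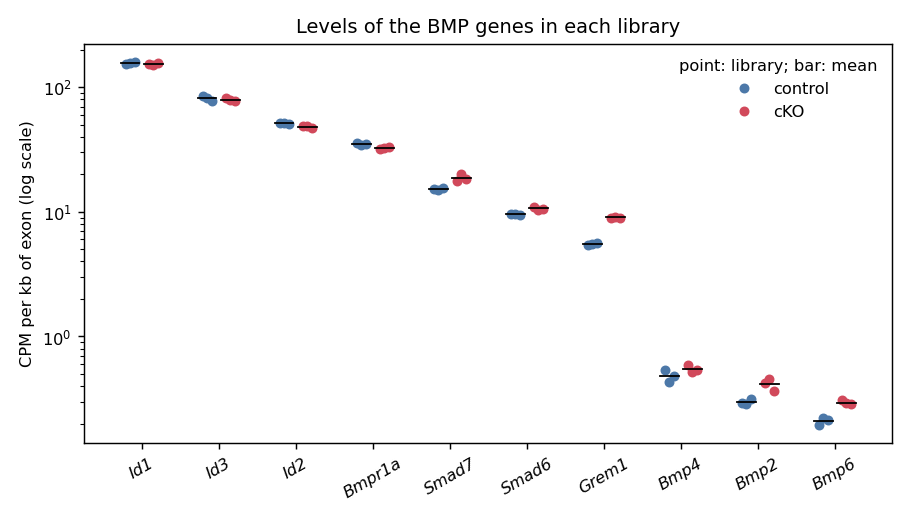
Level of each BMP gene in CPM per kilobase of exon (log axis) in the 3 control and 3 cKO libraries, with points for libraries and bars for means. The Id genes lie at the top, from Id1 at 157 in control, and the ligands at the bottom, down to Bmp6 at 0.210; Grem1 shows the widest gap between groups.

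The ligands start the pathway, and none of the 3 passed the test. Bmp2 (chr2:133552159-133562885, mm10) was counted 59, 65 and 69 times in the control libraries and 72, 96 and 72 times in cKO, or 1.04, 1.03 and 1.12 CPM against 1.502, 1.62 and 1.29. All cKO libraries lay above all control libraries, with a log2 fold change of 0.44 (SE 0.15, adjusted p = 0.0617 by edgeR). Without cKO replicate 3 the value was 0.53 and passed the test (adjusted p = 0.0494), and over all alternatives the adjusted p ran from 0.0494 to 0.193. Bmp6 (chr13:38345107-38500302) gave a similar picture, with 43, 55 and 51 counts in the control libraries and 58, 67 and 62 in those of cKO, or 0.760, 0.869 and 0.831 CPM against 1.21, 1.13 and 1.11. The groups did not overlap, and the log2 fold change was 0.46 (SE 0.16, adjusted p = 0.0715 by edgeR). Of its exonic bases, 5.74% overlap Txndc5 on the opposite strand, and 3.96% of those of Bmp4 overlap Gm15217 likewise. Whether the counting used strand is not given in the sources used here.

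Bmp4 (chr14:46383520-46390669), which had the most RNA per length of these 3 ligands, was counted 69, 61 and 66 times in the control libraries and 64, 69 and 67 times in cKO. In CPM these were 1.22, 0.963 and 1.07 against 1.33, 1.17 and 1.20, so the groups overlapped. Its log2 fold change was 0.16 with a 95% interval from -0.18 to 0.50 (adjusted p = 0.592, edgeR). At these depths counting error alone amounted to 11.8% of a library's count for Bmp2, 12.3% for Bmp4 and 13.4% for Bmp6, which limited what could be detected. Summed over the 3 ligands, the level was 1.03, 0.940 and 1.01 CPM per kilobase in control and 1.33, 1.27 and 1.18 in cKO, with no overlap.

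Bmpr1a (chr14:34410734-34503341) encodes the type I receptor through which BMP2 and BMP4 mainly signal, and it fell slightly in cKO. It was read at 225, 220 and 224 CPM in control and at 204, 206 and 211 in cKO, from at least 9767 counts in each library. Every cKO library lay below every control library. The fold was 0.913 (95% interval 0.873 to 0.955), and the log2 fold change of -0.13 (SE 0.03) passed the test of edgeR (adjusted p = 0.00708). The call held with each library left out in turn. Scaled by total counts only, the log2 fold change was -0.11 (adjusted p = 0.0214, edgeR). Of the exonic bases of Bmpr1a, 4.57% overlap Gm17110 on the opposite strand, and whether the counting used strand is not known.

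Grem1 (chr2:113746164-113758646, minus strand) had the largest log2 fold change among the 10 genes. The control libraries held 1262, 1462 and 1426 counts, and the cKO libraries 1780, 2242 and 2084. In CPM this was 22.3, 23.1 and 23.2 against 37.1, 37.9 and 37.3, so the gap between groups was many times the spread within either (SD 0.490 in control, 0.403 in cKO). The log2 fold change was 0.69 (SE 0.04, adjusted p = 1.09e-08 by edgeR), and leaving out any library kept it between 0.67 and 0.70. The 95% interval of the fold ran from 1.52 to 1.70.

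The inhibitory SMADs were both upregulated, with smaller folds. Smad7 (chr18:75367529-75395935), which targets activated receptors for degradation and also acts on TGF-beta signals, stood at 69.1, 68.1 and 70.1 CPM in control and at 79.3, 90.4 and 83.3 in cKO. The fold was 1.20 (95% interval 1.13 to 1.28), with a log2 fold change of 0.26 (SE 0.04, adjusted p = 0.000356 by edgeR). The groups did not overlap, and cKO replicate 2 was the highest library. Without it the log2 fold change was 0.21 and still passed the test (adjusted p = 0.000651).

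Smad6 (chr9:63953076-64022059), the inhibitor more selective for BMP signals, was read at 31.0, 30.8 and 30.4 CPM in control and at 34.9, 33.4 and 34.1 in cKO. All cKO libraries were higher, but the log2 fold change of 0.13 (SE 0.04) only just passed (adjusted p = 0.0387, edgeR). The call was lost in 5 of 6 fits that left out a library, with adjusted p from 0.0865 to 0.138, and was kept without cKO replicate 2 (0.0256). It was also lost with DESeq2 (0.104) and without the filter on low counts (0.0834).

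The Id genes are known as direct readouts of BMP-SMAD activity, and their measured differences were small. Id1 (chr2:152736251-152737410) was at 179, 182 and 185 CPM in control and at 178, 174 and 181 in cKO, with overlapping groups. Its fold was 0.961 (95% interval 0.918 to 1.01, adjusted p = 0.267 by edgeR). Id3 (chr4:136143497-136145755) was at 151, 148 and 138 CPM in control and 146, 143 and 138 in cKO. These groups overlapped as well, and the fold was 0.961 (0.909 to 1.02, adjusted p = 0.355). Over the alternatives the adjusted p stayed between 0.198 and 0.552 for Id1 and between 0.139 and 0.743 for Id3.

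Id2 (chr12:25093799-25097140) was downregulated by a small amount. It was read at 126, 126 and 125 CPM in control and at 119, 119 and 116 in cKO, with every cKO library lower. The fold was 0.922 (95% interval 0.882 to 0.964) and the log2 fold change -0.12 (SE 0.03, adjusted p = 0.0135 by edgeR). The call was lost without control replicate 1 (adjusted p = 0.0531), control replicate 2 (0.072) or cKO replicate 3 (0.0575). Scaled by total counts only, the log2 fold change of Id2 was -0.09 (adjusted p = 0.0495, edgeR). Summed over the 3 Id genes, the level was 290 ± 2.26 CPM per kilobase in control and 281 ± 2.44 in cKO (SD, n = 3 each).

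The genes whose log2 CPM followed Id1 most closely over the 6 libraries, among 16640 genes of at least 1 CPM on average, were Hnrnpf (Pearson r 0.995), Gm5452 (0.982) and Mrps36-ps1 (0.977). For Id3 they were Ap3s2 (0.990), Snu13 (0.989) and Rpa3 (0.984). These are descriptions over 6 libraries that share depth and preparation, and the closest of 16640 genes will be close for any gene.

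The 250 bases upstream of the RefSeq start (GRCm38.p6, the build of mm10) were read for the 7 members with a window that could be used. They were searched on both strands for GGCGCC, a GC-rich element that SMAD1 binds, and for CAGAC, the core of the SMAD-binding element, whose reverse complement is GTCTG. Matches to the 2 motifs did not overlap each other. GGCGCC occurred in the windows of Grem1, Id2 and Bmpr1a, and in 9.59% of all 32851 windows. CAGAC occurred in those of Grem1, Id3 and Bmp6, and in 42.2% of all windows. By the GENCODE M21 coordinates, the windows of Id2, Id3, Bmp6 and Bmpr1a lie inside the span of their own gene, so these matches are not upstream of every transcript. Grem1 and Smad6 are shown as upregulated members, and Bmp4 as a ligand that did not pass the test, all on the minus strand, written 5′ to 3′ with the motifs in capitals (Grem1 chr2:113758649-113758898, Smad6 chr9:64022060-64022309, Bmp4 chr14:46390670-46390919).
Grem1: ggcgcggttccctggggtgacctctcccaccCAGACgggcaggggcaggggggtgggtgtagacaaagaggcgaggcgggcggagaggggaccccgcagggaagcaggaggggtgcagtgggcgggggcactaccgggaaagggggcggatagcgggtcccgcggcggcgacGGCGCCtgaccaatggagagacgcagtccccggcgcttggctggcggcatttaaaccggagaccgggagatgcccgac
Smad6: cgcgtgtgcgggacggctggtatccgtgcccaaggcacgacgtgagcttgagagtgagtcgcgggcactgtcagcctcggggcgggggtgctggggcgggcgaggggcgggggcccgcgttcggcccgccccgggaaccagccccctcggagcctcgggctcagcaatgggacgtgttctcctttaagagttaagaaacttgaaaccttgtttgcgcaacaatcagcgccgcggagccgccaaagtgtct
Bmp4: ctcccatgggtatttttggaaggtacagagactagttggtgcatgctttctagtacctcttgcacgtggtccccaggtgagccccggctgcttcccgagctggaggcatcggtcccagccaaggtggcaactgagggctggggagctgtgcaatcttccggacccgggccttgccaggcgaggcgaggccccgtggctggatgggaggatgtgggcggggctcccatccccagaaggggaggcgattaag
Only the Grem1 window held a motif among these 3, with 1 match of each. A match is a string of letters and was not tested as a binding site.

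The rest of the pathway was read from 6 lists of 61 further genes, of which 50 were tested. Of these, 16 were upregulated and 4 downregulated, or 32% and 8% of those tested, beside 9.38% and 6.46% of all genes. Their median log2 fold change was 0.01. Of all 3549 calls, 59.2% were higher in cKO. When libraries were scaled by total counts only, 70.0% of the calls of that fit were higher in cKO.

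Antagonists and modulators, the longest of these lists, held most of the upregulated genes. Of 19, 18 were tested, 9 rose (50%) and 1 fell (5.56%), beside 9.38% and 6.46% of all tested genes. The median log2 fold change of the list was 0.28. Crim1, a membrane protein that tethers BMP ligands, went from 76.0 ± 1.38 to 128 ± 7.27 CPM (SD, n = 3 each) at a log2 fold change of 0.73 (adjusted p = 5.24e-09, edgeR). By library it was at 75.5, 74.9 and 77.5 CPM in control and at 122, 136 and 125 in cKO, so the groups did not overlap.

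Bmper, a ligand-binding modulator, rose by 0.90, the decoy receptor Bambi by 0.64, and Tsku and Fstl1 by 0.44 each, all log2 fold changes that passed edgeR's test. Fstl1 was the most abundant of these in CPM, at 246 in control and 339 in cKO. Tll1 and Bmp1, proteases that cleave chordin and so release ligand, rose by 1.21 and 0.23. They act against an antagonist, although they stand in the same list. Nog, which encodes noggin, rose by 0.32 (adjusted p = 0.00914), and without cKO replicate 3 the value was 0.28 with an adjusted p of 0.0502. Sost, which encodes sclerostin, fell by 0.90 on the log2 scale, from 4.36 to 2.34 CPM. Chordin itself (Chrd, log2 fold change -0.13) and follistatin (Fst, 0.09) did not pass the test.

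Among 11 other receptors and co-receptors, 3 were upregulated and 1 downregulated, or 27.3% and 9.09%, beside 9.38% and 6.46% of all tested genes. Acvrl1 (ALK1) went from 5.46 to 10.1 CPM at a log2 fold change of 0.86 (adjusted p = 3.08e-05), and its co-receptor Eng from 14.5 to 21.5 CPM at 0.55 (adjusted p = 7.9e-06) by edgeR. Both are known for their high level in endothelial cells. Bmpr1b, the other BMP type I receptor of the BMPR1 pair, rose by 0.56 (5.86 to 8.75 CPM). Bmpr2, the type II receptor, stood at 196 CPM in control and at 177 in cKO and fell by 0.17 on the log2 scale (adjusted p = 0.00582), in the same direction as Bmpr1a.

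Of 6 SMADs and SMAD ubiquitin ligases, Smad9 rose by 0.29 and Smurf2, a ubiquitin ligase that works with SMAD7, by 0.22 on the log2 scale. Upregulated genes made up 33.3% of this list, beside 9.38% of all tested genes. The Smad9 call was lost without control replicate 3 (0.24, adjusted p = 0.0602 by edgeR). None of the 4 tested genes among 12 other ligands passed, 8 were below the filter, and Bmp10 and Gdf2 had no count in any library. Gdf6 was the most abundant of them at 19.4 CPM in control, or 5.48 CPM per kilobase against 0.483 for Bmp4. None of the 3 E proteins that Id proteins bind passed, with a median log2 fold change of -0.09.

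Of the 8 tested among 10 other BMP-SMAD targets, 2 rose and 2 fell, or 25% each, beside 9.38% and 6.46% of all tested genes. Id4, the fourth Id gene, was read at 12.04, 11.8 and 11.9 CPM in control and at 17.9, 20.2 and 19.3 in cKO. It rose by 0.66 on the log2 scale (adjusted p = 5.17e-07, edgeR). Id1, Id2 and Id3 were not upregulated, and the difference between Id4 and these was not tested. Msx1 rose by 0.58, but the call was lost without cKO replicate 2 (0.44, adjusted p = 0.113) or control replicate 3 (0.42, adjusted p = 0.125). Hey1 fell by 0.45 and Runx2 by 0.29, and both are also known as targets of other pathways.

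**Figure D3:**
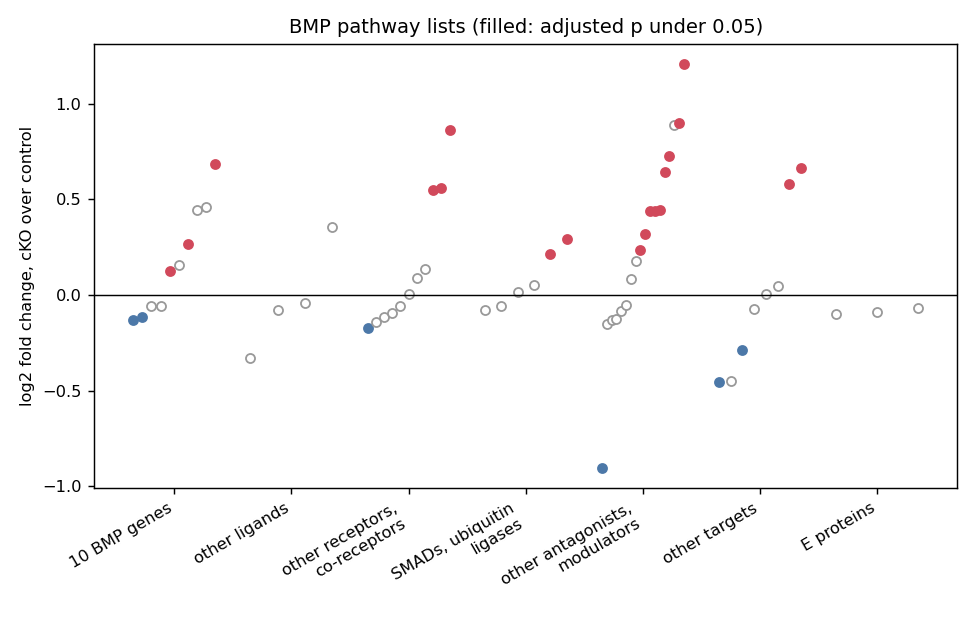
Log2 fold change, cKO over control (y axis), of each tested gene in the 7 lists, with filled red points for upregulated and filled blue for downregulated genes at an adjusted p under 0.05. The 9 upregulated antagonists and modulators reach 1.21 (Tll1), while the 3 E proteins and the 4 other ligands have no filled point.

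Summed macrophage, fibroblast, endothelial and smooth muscle markers were higher in every cKO library than in every control library, and glial and tenocyte markers had no call. In summed CPM, 8 macrophage markers ranged from 107 to 112 in control and from 229 to 268 in cKO, and 8 of 8 were upregulated. The 8 fibroblast markers went from 527 to 553 in control to 783 to 876 in cKO, with 4 of 7 tested upregulated and Lum at 0 to 2 counts in control. Endothelial markers were at 19.5 to 21.1 and 29.4 to 34.6, with 4 of 8 upregulated. Smooth muscle and pericyte markers were at 357 to 361 and 429 to 480, with 5 upregulated and 2 downregulated of 7 tested, and Kcnj8 had 1 to 3 counts per library. Over all tested genes, 9.38% were upregulated and 6.46% downregulated. No listed marker was at 0 in every library. The gate was set to leave out CD45+ and SCA1+ cells.

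Muscle markers moved the other way. Of all tested genes, 6.46% were downregulated in cKO. Satellite cell and myoblast markers summed to 5000.15 to 5105 CPM in control and 4486 to 4827 in cKO, with 6 of 8 downregulated, and differentiating muscle markers to 20603 to 21168 and 17861 to 20156, with 5 of 8 downregulated. Glial sums were 6.53 to 7.19 in control and 7.88 to 10.4 in cKO, and tenocyte sums 79.2 to 81.6 and 71.7 to 81.0, with none of the 3 tested in either list called. In bulk RNA, fewer cells of a type and less RNA per cell cannot be told apart. The same holds for more cells of another type and expression of its markers within satellite cells. The study proposes that genes of other lineages, among them Cdh5 and Pdgfra, rise within satellite cells lacking Hira. It also reported RT-qPCR of both genes and VE-cadherin (Cdh5) staining in such cells.

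Replicate 2 of cKO had the highest macrophage, fibroblast, endothelial and smooth muscle sums and the lowest muscle sums. Among upregulated genes, it was also the highest cKO library for Smad7, Acvrl1, Eng, Crim1, Fstl1, Bmper, Tll1, Id4, Smad9, Smurf2, Bmp1 and Msx1. Smad6, Bmpr1b, Nog, Bambi and Tsku were highest in another cKO library. Without it, 3 of the 10 members and 16 genes of the wider lists were upregulated, the same counts as with it. In cKO replicates 1 and 3 the macrophage sums were also raised, at 237 and 229 CPM against 107 to 112 in control. Leaving out replicate 2 therefore cannot measure the part of other cell types. For Grem1, replicate 2 was higher than the other cKO libraries by less than 1 CPM, and the log2 fold change without it was 0.68. Whether the rises of Grem1, Crim1, Fstl1, Acvrl1, Eng and Smad7 came from other cell types or from within satellite cells was not tested. Nor was the part of the fall in muscle markers in the falls of Bmpr1a and Id2.

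**Figure D4:**
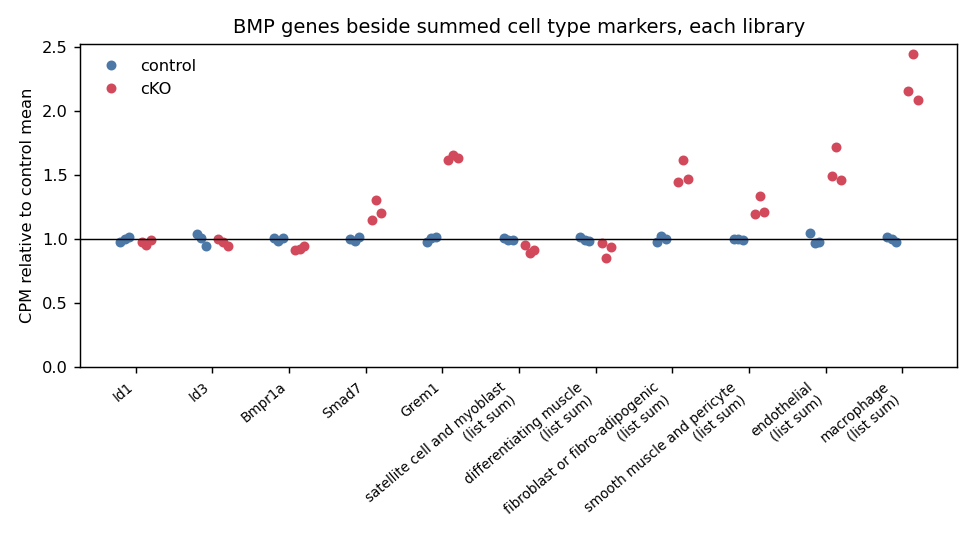
CPM of selected BMP genes and summed CPM of marker lists in each library, relative to the control mean (y axis, line at 1), for 3 control and 3 cKO libraries. Grem1 rises by a similar relative amount in all cKO libraries, while the macrophage sum, at 229 to 268 CPM in cKO, rises most and peaks in cKO replicate 2.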

How the data were processed

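Total RNA (400 ng, rRNA-depleted, stranded kit) was sequenced as single-end 75 bp reads. The authors used Bowtie2 2.3.4.2 for alignment against mm10, and deposited raw counts per gene from featureCounts 1.6.3. Since Bowtie2 does not split reads, most reads across exon junctions are missing from the counts. The deposited normalized table and the authors' DESeq2 2.11.40.6 comparison (log2 fold changes, p-values) were not used. Strand and multi-mapping settings are not given in the sources used here.

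Of 55536 gene identifiers, 55450 had a position in GENCODE M21, the source of symbols and coordinates. Hjv was matched through its older symbol. Genes were tested with edgeR 4.0.16 in R 4.3.3 (filterByExpr, TMM, quasi-likelihood test, genotype as the only term). The threshold was a Benjamini-Hochberg adjusted p under 0.05 over 22404 genes. The method was tried on simulated counts in which 200 genes changed by 1 on the log2 scale. That is more than any of the 10 members changed, so the trial does not cover changes as small as theirs. Intervals are 95% intervals of the fit. Replicates differed by a common coefficient of variation of 3.92%. CPM was computed from library totals. Within each group, no library was a duplicate of another. All 10 members, Hira, the called genes of the pathway lists (1 is not reported here), and 3 close correlates each of Id1 and Id3 were named by rule; Chrd, Fst, Gdf6, Bmp10, Gdf2, Lum and Kcnj8 were named after their values were seen. The members and lists were chosen with earlier results of these data known. Alternatives were DESeq2 1.42.0, other scaling, no filter, a replicate block, an adjusted p under 0.01, and leaving out each library.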

Additional observations from a re-analysis of the deposited data

How the results depend on the processing

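No member and no called gene of the wider lists changed direction under the alternatives run. Of 186 single-gene values under other settings, 179 stayed on their side of the threshold and 7 lost a call. Of 186 values without a library, 172 stayed, 13 lost a call and 1 gained one (Bmp2). Downregulated members numbered 1 at an adjusted p under 0.01, and 1 to 2 when a library was left out. Upregulated members numbered 2 to 3 when a library was left out. Downregulated genes of the wider lists ranged from 4 to 7, the most without cKO replicate 2. Over all tested genes, 1448 were lower in cKO, 732 at an adjusted p under 0.01, and 917 to 1673 without a library, with 917 without control replicate 1, 934 without control replicate 2 and 960 without control replicate 3.

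The replicate numbers did not pair the samples, since deviations of same-numbered samples correlated at -0.0079, -0.0003 and -0.0118. With a replicate block, 2 members were upregulated (Smad6 was lost, adjusted p = 0.0636 by edgeR) and 2 downregulated, 16 genes of the wider lists were upregulated, and 1901 and 1251 of all genes were called higher and lower. The ligands, at 43 to 96 counts per library, were limited by counting error.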
